A study of Mus musculus with 2 samples.

Results

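The sirtuins are the 7 genes Sirt1 to Sirt7, and they were taken from the expression table of F123 mouse embryonic stem cells (mESCs) by gene name. They account for 10 records of 7 genes, out of 37178 records of 29833 genes, where a record is 1 gene with 1 transcript biotype. Of the 10 sirtuin records, 7 are protein-coding and 3 are lncRNA records of Sirt2, Sirt4 and Sirt7. F123 is a male hybrid line from a cross of Cast and S129/Jae mice, so each cell holds a CAST and an S129 copy of every gene studied. Total RNA was sequenced in 2 replicates, which the deposited table holds only as pooled values. There is therefore no spread between replicates, and every comparison here is between the CAST and the S129 allele within the same cells. According to the study, CAST is the paternal and S129 the maternal genome. Strain and parent of origin cannot be told apart in 1 line from 1 cross. The cells had been grown on fibroblast feeders and passaged without them before harvest.

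Sirtuins remove acetyl and other acyl groups from lysines and consume NAD+ in each reaction, which ties them to the metabolic state of the cell. SIRT1, SIRT6 and SIRT7 are mainly nuclear enzymes, with SIRT7 in the nucleolus, SIRT2 is mainly cytosolic, and SIRT3, SIRT4 and SIRT5 are mitochondrial. In embryonic stem cells SIRT1 is known as a deacetylase of p53, and SIRT6 as a histone H3 deacetylase that restrains differentiation genes.

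All 7 sirtuin genes were expressed, at a TPM, a level scaled for transcript length and library size, of at least 1, and 9 of the 10 records held reads that could be assigned to an allele. Allele-specific expression (ASE) was called at a 2-fold or larger difference between CAST and S129 reads with an adjusted p of at most 0.05, and other expressed records with allelic reads are called biallelic here. ASE was found for 3 sirtuin records, all toward CAST and none toward S129. They belong to 2 genes, the cytosolic deacetylase Sirt2 with both of its records and the mitochondrial desuccinylase Sirt5. The other 6 tested records, of Sirt1, Sirt3, Sirt4, Sirt6 and Sirt7, were biallelic. Over all 15935 expressed records with allelic reads, ASE was called in 14.1%, with 8.33% toward CAST and 5.78% toward S129. The sirtuins are too few for their share to be read against this background, and both Sirt2 records hold some of the same reads. The median CAST share was 50.4% over the 9 sirtuin records and 50.15% over all tested records.

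The 300 bases around the RefSeq start site (250 before, 50 after) are shown for Sirt2 and Sirt5, the genes with ASE, and for Sirt1, the most highly expressed sirtuin, which was biallelic. The sequences are those of the GRCm38.p6 reference genome as given by RefSeq, which is neither of the parental strains, and are written 5′ to 3′ on the strand of the gene. They lie at chr7:28766502-28766801 (Sirt2, plus strand), chr13:43365285-43365584 (Sirt5, plus strand) and chr10:63338986-63339285 (Sirt1, minus strand). The protein-coding records of Sirt2 and Sirt5 start 65 and 94 bases past the RefSeq start, just outside these windows. That of Sirt1 starts 4 bases from it. Capitals mark any match, on either strand, to the CCAAT box (CCAAT), the GC box (GGGCGG), the E-box (CACGTG), the ETS core (CCGGAA), the TATA box (TATAAA) or the cAMP response element (TGACGTCA).
Sirt2: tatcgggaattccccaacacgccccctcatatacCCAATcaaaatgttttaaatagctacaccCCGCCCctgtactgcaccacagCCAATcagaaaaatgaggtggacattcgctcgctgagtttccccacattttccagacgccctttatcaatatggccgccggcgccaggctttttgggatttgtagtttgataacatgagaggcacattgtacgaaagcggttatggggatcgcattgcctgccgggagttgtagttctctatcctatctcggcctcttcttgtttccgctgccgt
Sirt5: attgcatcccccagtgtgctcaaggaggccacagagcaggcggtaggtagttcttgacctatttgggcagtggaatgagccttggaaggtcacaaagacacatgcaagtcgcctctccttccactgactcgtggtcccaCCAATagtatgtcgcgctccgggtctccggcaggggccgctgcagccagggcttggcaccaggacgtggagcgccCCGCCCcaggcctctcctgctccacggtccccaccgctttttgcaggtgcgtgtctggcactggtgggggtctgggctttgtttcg
Sirt1: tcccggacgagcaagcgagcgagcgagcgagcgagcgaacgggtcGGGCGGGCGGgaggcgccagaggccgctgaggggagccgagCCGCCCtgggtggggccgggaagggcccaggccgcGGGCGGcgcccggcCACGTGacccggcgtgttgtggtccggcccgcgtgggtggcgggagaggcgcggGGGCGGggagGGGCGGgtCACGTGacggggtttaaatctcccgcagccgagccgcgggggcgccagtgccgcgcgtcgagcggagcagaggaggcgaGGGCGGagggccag

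The promoters differed in base composition. The Sirt1 window held 47 CpG dinucleotides at a GC content of 79%, a CpG number reached by 1.44% of the 32851 mouse promoters of the same length. The Sirt2 and Sirt5 windows held 16 and 15 CpG dinucleotides, at GC contents of 50% and 62%, against a median of 7 CpG dinucleotides and a GC content of 52.7% over all promoters. Sirt1 carried 7 GC boxes, of which 1 pair overlapped, and 2 E-boxes. The Sirt2 window carried 2 CCAAT boxes and 1 GC box, and the Sirt5 window 1 of each. The CCAAT box was found in 37.4% of all promoters, the GC box in 35.7%, the E-box in 7.15%, the ETS core in 14.9%, the TATA box in 13.6% and the cAMP response element in 1.79%. No pair of different motifs overlapped, and neither TATA box nor cAMP response element was present in any of the 9 RefSeq windows of the 7 sirtuin genes. The positions of the allelic variants are not in the table, so whether they fall in these windows was not tested.

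The nuclear sirtuins Sirt1 and Sirt6 were the most highly expressed. Sirt1 reached 32.2 TPM over its kept transcript, Sirt1-201, and Sirt6 reached 27.3 TPM over Sirt6-202. Among all expressed records these levels were at percentiles of 88.1 for Sirt1 and 85.7 for Sirt6. Below them came the Sirt2 lncRNA record at 11.2 TPM, the Sirt7 protein-coding record at 8.90 TPM, the Sirt2 protein-coding record at 5.72 TPM and the Sirt7 lncRNA record at 5.06 TPM. The median of all expressed records was 6.24 TPM, so only 4 of the 10 sirtuin records were above it. The mitochondrial sirtuins were the lowest, with 4.28 TPM for Sirt3, 3.94 TPM for the Sirt4 protein-coding record, 2.65 TPM for the Sirt4 lncRNA record and 2.32 TPM for Sirt5. Because the replicates were pooled, which neighbours in this order differ beyond their spread was not tested. When only exonic reads were used, Sirt4 with 3.30 TPM and Sirt3 with 2.60 TPM exchanged ranks 7 and 8, and no other rank changed. The ratio of exonic to whole-transcript TPM was lowest for Sirt3 at 0.608 and Sirt5 at 0.663, and highest for the Sirt2 lncRNA record at 1.17.

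**Figure D1:**
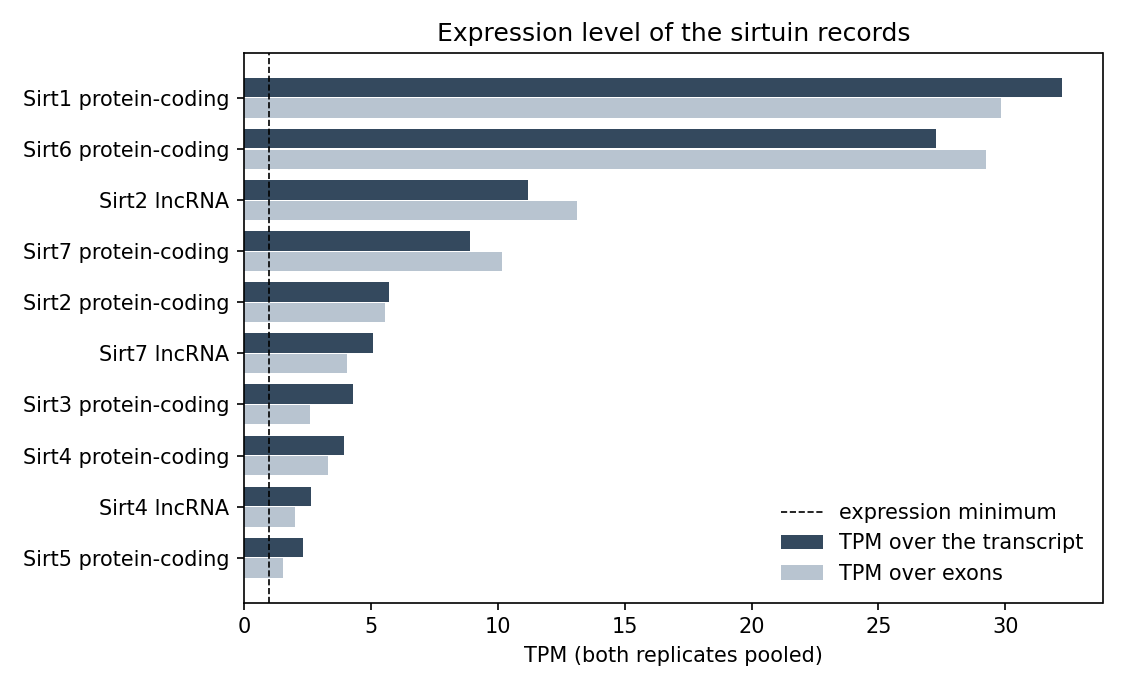
Expression of the 10 sirtuin records in TPM, from both replicates pooled, over the whole transcript (dark bars) and over exons only (light bars). Sirt1 at 32.2 TPM and Sirt6 at 27.3 TPM stand above the other records, and all bars pass the dashed minimum of 1 TPM.

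Several kept transcripts are short or incomplete models, which bears on their levels. The table holds 1 transcript per gene and biotype. According to the study's methods, genes with several isoforms were represented by the one with the most RNA polymerase II reads at its start site, with length or a random choice where this was ambiguous. Sirt5-202 has 4 exons with 435 bases and is annotated by GENCODE with an incomplete coding end. Sirt7-202 spans 995 bases with 4 exons, whereas Sirt1-201 spans 20026 bases with 9 exons. The 3 lncRNA records are annotated as processed transcripts, and they overlap the protein-coding record of the same gene on the same strand. Reads in shared exons cannot be assigned to only 1 of these records. In bulk RNA a lower level in every cell and expression in fewer cells cannot be told apart either.

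As a check of the cell type, all 8 embryonic stem cell markers were expressed, between 24.4 TPM for Esrrb and 381 TPM for Dppa5a. Of 8 feeder fibroblast markers, 3 reached 1 TPM in their best record, with the lowest at 0.0363 TPM for Dcn, the highest at 7 TPM for Thy1, and none at 0. The summed level was 11.8 TPM for the feeder markers and 1410 TPM for the stem cell markers. The part of residual feeder RNA in the sirtuin values was not tested.

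Sirt1, which encodes the NAD-dependent deacetylase of p53 and FOXO factors, was biallelic. It lies at chr10:63319007-63339032 on the minus strand (GRCm38), and 37 variants were counted, of which 34 are intronic and 3 exonic. There were 442 reads from CAST and 423 from S129, a CAST share of 51.1% (95% exact interval 47.7 to 54.5). The log2 ratio of CAST over S129 was 0.06 ± 0.10 (counting SE; two-sided exact binomial test, adjusted p = 0.672). At this depth ASE would have required 577 of the 865 reads on 1 allele, so a 2-fold difference was within reach of the data.

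Sirt6, the histone H3 deacetylase also linked to DNA repair, was the most evenly shared sirtuin. At chr10:81621785-81627320, on the minus strand, 25 variants gave 398 CAST and 396 S129 reads. The CAST share was 50.1% (46.6 to 53.7), with a log2 ratio of 0.01 ± 0.10. The intervals of Sirt1 and Sirt6 both include equal expression and exclude a 2-fold difference in either direction, as far as counting error goes.

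For Sirt7, the nucleolar sirtuin that acts on RNA polymerase I transcription, allelic resolution was poor. The protein-coding record, chr11:120623990-120624984 on the minus strand, had no variant and thus no allelic reads. The lncRNA record, chr11:120620999-120624990, contains it and had 1 intronic variant with 7 CAST and 10 S129 reads, a CAST share of 41.2% (18.4 to 67.1). With 17 reads, at least 14 on 1 allele would have been needed for a call. This limit is 82.4% of the reads, above the share that a 2-fold imbalance gives on average. A 2-fold imbalance of Sirt7 could therefore easily be missed at this depth.

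Sirt2, the tubulin deacetylase, showed the strongest allelic difference of the family. Its protein-coding record, Sirt2-209 at chr7:28766816-28788661 on the plus strand, had 831 reads from CAST and 174 from S129 over 10 variants, 8 of them exonic. The CAST share was 82.7% (80.2 to 85.0) and expression was 4.78-fold higher from CAST (log2 ratio 2.26 ± 0.12, two-sided exact binomial test, adjusted p = 2.35e-101). Of all tested records, 2.92% had a CAST share as high or higher. The Sirt2 call held under every alternative that was run for this record. With an intra-gene correlation of 0.05 between reads it only just passed (beta-binomial test, adjusted p = 0.0423).

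The Sirt2 lncRNA record, Sirt2-205 at chr7:28784626-28787767, had 111 reads from CAST and 0 from S129 at its only variant, which is exonic. The exact 95% interval of its CAST share was 96.7 to 100%. With the floor of 3 reads taken for an allele with a count of 0, which is a separate and slightly less wide limit, the S129 share is at most 2.7% and expression was at least 37-fold higher from CAST (exact binomial test, adjusted p = 1.48e-32). This transcript lies entirely inside the protein-coding record. Of its 561 exonic bases, 322 fall in exons 7 to 12 of the 13 exons of Sirt2-209. In these shared bases its reads cannot be told apart from those of the coding transcript by position. Whether its variant lies in the shared bases was not tested. Because the protein-coding record contains the lncRNA record and its reads, both records are not independent observations. Without the reads of the lncRNA record, the remaining 9 variants of the protein-coding record gave 720 CAST and 174 S129 reads, a share of 80.5% (77.8 to 83.1) and a log2 ratio of 2.05 ± 0.12. The single variant of the lncRNA record thus had a higher CAST share than the other variants (Fisher's exact test, two-sided, p = 2.92e-10, chosen after the values were seen). The shares of the individual variants behind the sum are not in the table. For a single variant, whether its S129 base was correctly called or mapped was not tested.

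Sirt3, the main mitochondrial deacetylase, was biallelic. At chr7:140863670-140882298 on the minus strand, 20 variants, 15 of them exonic, gave 240 CAST and 236 S129 reads. The CAST share was 50.4% (45.8 to 55.0), with a log2 ratio of 0.02 ± 0.13. In the table its first 331 bases overlap the start of Psmd13, a proteasome subunit gene on the other strand, and its end overlaps Ric8a by 61 bases. The sources used here do not state that allelic reads were counted by strand, so reads in these overlaps cannot be assigned.

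For Sirt4, a mitochondrial lipoamidase and ADP-ribosyltransferase, the shares were uncertain. The protein-coding record, chr5:115478010-115484725 on the minus strand, had 21 CAST and 26 S129 reads over 4 variants, a CAST share of 44.7% (30.2 to 59.9). The lncRNA record inside it, chr5:115480231-115484345, had 17 CAST and 21 S129 reads over 3 variants, a CAST share of 44.7% (28.6 to 61.7). Only 1 variant with 4 CAST and 5 S129 reads was outside the lncRNA record, so both records describe nearly the same reads. The S129 allele carries the non-reference base at this gene in 1 variant of the protein-coding record, whereas every variant of the other sirtuin records has it on CAST. Calls would have needed 32 of 47 and 27 of 38 reads on 1 allele.

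Sirt5, which removes succinyl, malonyl and glutaryl groups from mitochondrial proteins, was expressed more from CAST. Its record, Sirt5-202 at chr13:43365628-43376732 on the plus strand, had 207 CAST and 80 S129 reads over 16 variants, 12 of them intronic. The CAST share was 72.1% (66.6 to 77.2), which corresponds to a 2.59-fold higher expression from CAST (log2 ratio 1.37 ± 0.19, two-sided exact binomial test, adjusted p = 3.32e-13). Of all tested records, 6.36% had a CAST share as high or higher. The Sirt5 call depended on how strongly the reads of the gene were taken to be correlated. It held with an intra-gene correlation of 0.01 (beta-binomial test, adjusted p = 0.00123). It was lost with an intra-gene correlation of 0.05 (beta-binomial test, adjusted p = 0.552) and with the mean reads per variant taken as counts (adjusted p = 0.570), and at 2.32 TPM it is outside a minimum of 5 TPM.

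**Figure D2:**
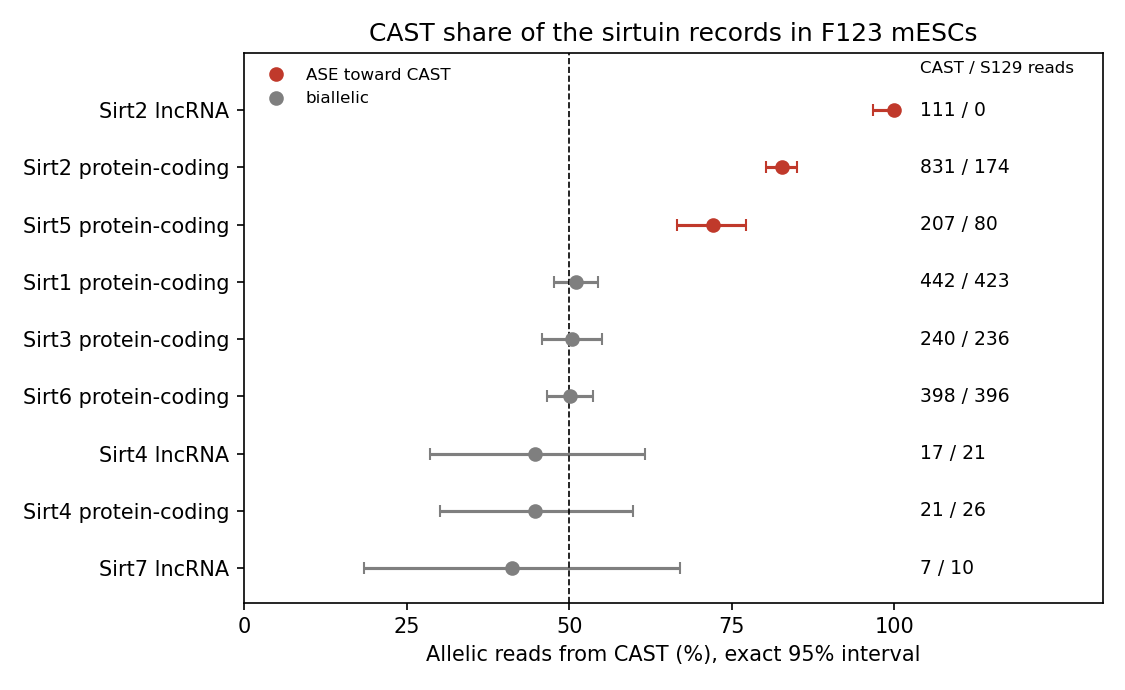
CAST share of the allelic reads (%) for the 9 sirtuin records with reads, as points with exact 95% intervals, and the CAST and S129 read numbers at the right. The Sirt2 records at 100% and 82.7% and Sirt5 at 72.1% lie right of the dashed line of equal expression, and the intervals of the other 6 records include it.

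The order of the shares was tested between neighbours with 1 record per gene, the protein-coding one or, for Sirt7, the lncRNA record. Sirt2 was highest, followed by Sirt5, Sirt1, Sirt3, Sirt6, Sirt4 and Sirt7. Of the 6 neighbouring pairs, 2 differed by Fisher's exact test (two-sided, Benjamini-Hochberg adjusted). Sirt2 exceeded Sirt5 by 10.6 percentage points (exact test, adjusted p = 0.000418), and Sirt5 exceeded Sirt1 by 21.0 points (adjusted p = 1.93e-09). With the mean reads per variant taken as counts, which was chosen after the values were seen, 0 of the 6 pairs passed. The shares of Sirt1, Sirt3 and Sirt6 lay within 1 percentage point of each other. Sirt6 was 5.45 points above Sirt4, a difference that did not pass the test with the 47 reads of Sirt4, and Sirt4 was 3.50 points above Sirt7.

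Depth differed widely within the family and did not follow the expression level. Sirt2 had 100.5 allelic reads per variant at 5.72 TPM, against 23.4 reads per variant for Sirt1 at 32.2 TPM. Most variants of Sirt2 are exonic and most of Sirt1 are intronic. Of the 20 Sirt3 variants 15 are exonic as well, and what sets the depth was not tested. Sirt3 had 23.8 reads per variant, Sirt6 31.8, Sirt5 17.9 and the Sirt4 protein-coding record 11.8. The sirtuin records had a median of 287 allelic reads, and all tested records had a median of 397. In the plot of all records against depth, Sirt1, Sirt3 and Sirt6 sit in the dense centre, Sirt2 lies above it at 1005 reads, and Sirt4 and Sirt7 lie where few reads spread the shares.

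**Figure D3:**
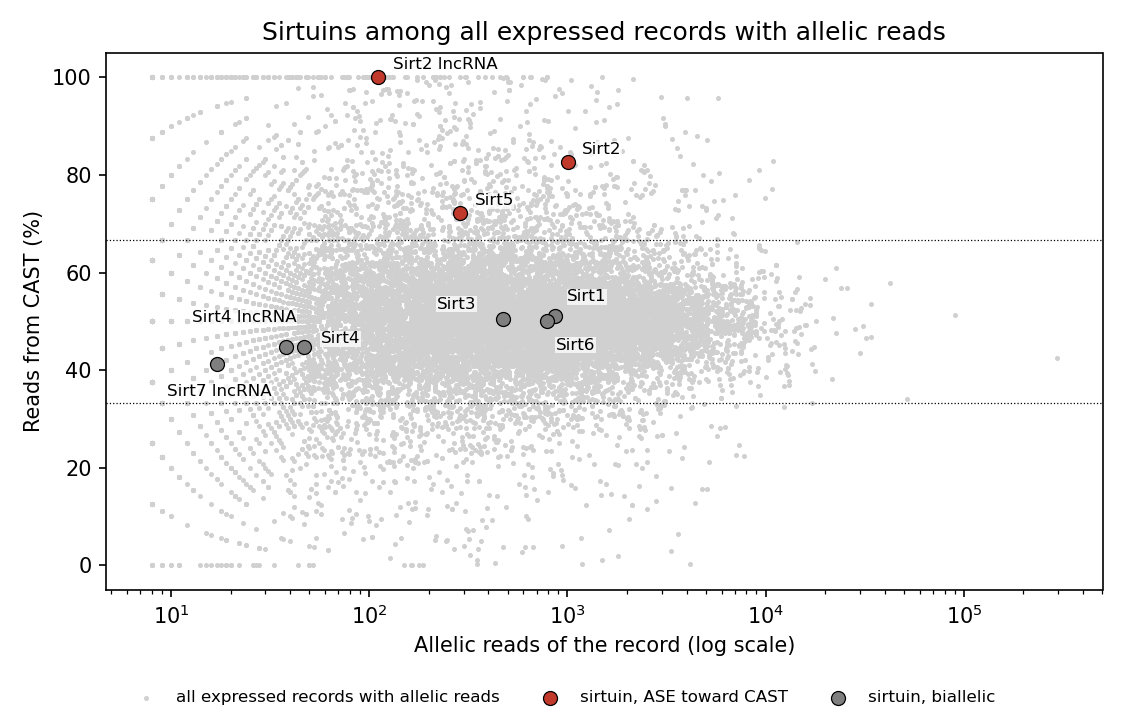
CAST share (%) against the number of allelic reads (log scale) for the 15935 expressed records with allelic reads (light points), with the sirtuin records as large points. The dotted lines mark a 2-fold difference. Both Sirt2 records and Sirt5 lie above the upper line, and the other 6 sirtuin records lie between the lines.

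Records that overlap a sirtuin gene or start within 100 kb of a sirtuin start site were read off to see whether the neighbours of a sirtuin share its allelic state. Of 101 such records, 75 were expressed and 68 of these had allelic reads. ASE was called for 8 toward CAST and 7 toward S129. The share called over all tested records was 14.1%, with 8.33% toward CAST and 5.78% toward S129, and no test was made against it. The 15 calls became 6 with an intra-gene correlation of 0.05 and 9 with a minimum of 5 TPM. Each sirtuin was also compared with 2 expressed protein-coding records with allelic reads, those whose start sites are nearest at lower and at higher coordinates. Of these 14 pairs, 7 differed by Fisher's exact test (two-sided, adjusted over the 14 pairs, chosen after the values were seen). With the mean reads per variant taken as counts 3 pairs passed, Sirt2 with Nfkbib, Sirt2 with Rinl and Sirt1 with Gm7075. Gm7075 has only 1 variant, so this setting could not lower its own reads.

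Around Sirt2 the allelic state changed from gene to gene. Nfkbib, which encodes an inhibitor of NF-kB, starts only 302 bases from Sirt2 on the opposite strand, and the Sirt2 window printed above includes its start site. Sirt2 had a CAST share of 82.7% and Nfkbib one of 46.8% (383 CAST and 436 S129 reads), a difference of 35.9 points (exact test, adjusted p = 9.30e-59). On the other side Rinl, a gene related to Ras and Rab interactors, had 250 CAST and 898 S129 reads and was called toward S129, 60.9 points below Sirt2 (exact test, adjusted p = 2.96e-186). Its lncRNA record was also called toward S129, with 171 CAST and 873 S129 reads. The next expressed gene with many reads, Hnrnpl, a splicing regulator, was evenly shared, with 796 CAST and 793 S129 reads. Elsewhere in the window, the protein-coding record of Ech1, an enzyme of fatty acid oxidation, was called toward CAST with 493 CAST and 198 S129 reads. The lncRNA record inside it was biallelic, with 55 CAST and 68 S129 reads. Also called toward CAST were Fbxo17 with 24 CAST and 4 S129 reads and the lncRNA record of Mrps12 with 435 CAST and 102 S129 reads. The protein-coding record of Mrps12, a mitochondrial ribosomal protein gene, was biallelic, with 891 CAST and 664 S129 reads. Of the 13 tested records around Sirt2, 3 were called toward CAST and 2 toward S129.

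Sirt5 has few neighbours. Only 2 other records fell in its window, and neither was called. Gfod1 lies upstream with 728 CAST and 680 S129 reads, 20.4 points below Sirt5 (exact test, adjusted p = 4.53e-10). Nol7, a nucleolar protein gene downstream, had 1503 CAST and 941 S129 reads, a share of 61.5% that was 10.6 points below that of Sirt5 (exact test, adjusted p = 0.000889). Nol7 was shifted in the same direction as Sirt5 but stayed under the 2-fold minimum.

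The biallelic sirtuins did not all lie among biallelic genes. Sirt4 had the most ASE around it, with 4 of 7 tested records called toward CAST. They were Rplp0, which encodes a ribosomal stalk protein (3834 CAST and 167 S129 reads), Msi1, an RNA-binding protein gene (464 CAST and 71 S129 reads), and both records of the phospholipase gene Pla2g1b, which hold the same 1916 CAST and 831 S129 reads. Sirt4 was 25.1 points below Pla2g1b (exact test, adjusted p = 0.00121), whereas its difference from Pxn, the paxillin gene on the other side, of -14.5 points did not pass the test (adjusted p = 0.0888). Sirt6 was 25.9 points above Ankrd24 (128 CAST and 400 S129 reads, called toward S129, exact test, adjusted p = 7.05e-21), and it was 0.526 points above Tle6, a pair that did not pass the test.

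Sirt1 lay 48.9 points below Gm7075, which had 33 CAST and 0 S129 reads at 1 variant (exact test, adjusted p = 2.16e-09). Whether the S129 base of this variant was correctly called or mapped was not tested. Sirt1 did not differ by the test from Herc4, a ubiquitin ligase gene with 1101 CAST and 1108 S129 reads. Around Sirt3, neither Psmd13 (194 CAST and 212 S129 reads) nor Pgghg (557 CAST and 598 S129 reads) passed the test against Sirt3, and Syce1 (8 CAST and 29 S129 reads) and Ifitm5 (6 CAST and 19 S129 reads) were called toward S129. Ric8a, whose end overlaps that of Sirt3, had 533 CAST and 657 S129 reads. Around Sirt7, Notum and Myadml2os were called toward S129 with the same 6 CAST and 97 S129 reads, and the flanking genes Pcyt2 (137 CAST and 134 S129 reads) and Mafg (364 CAST and 303 S129 reads) were biallelic.

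**Figure D4:**
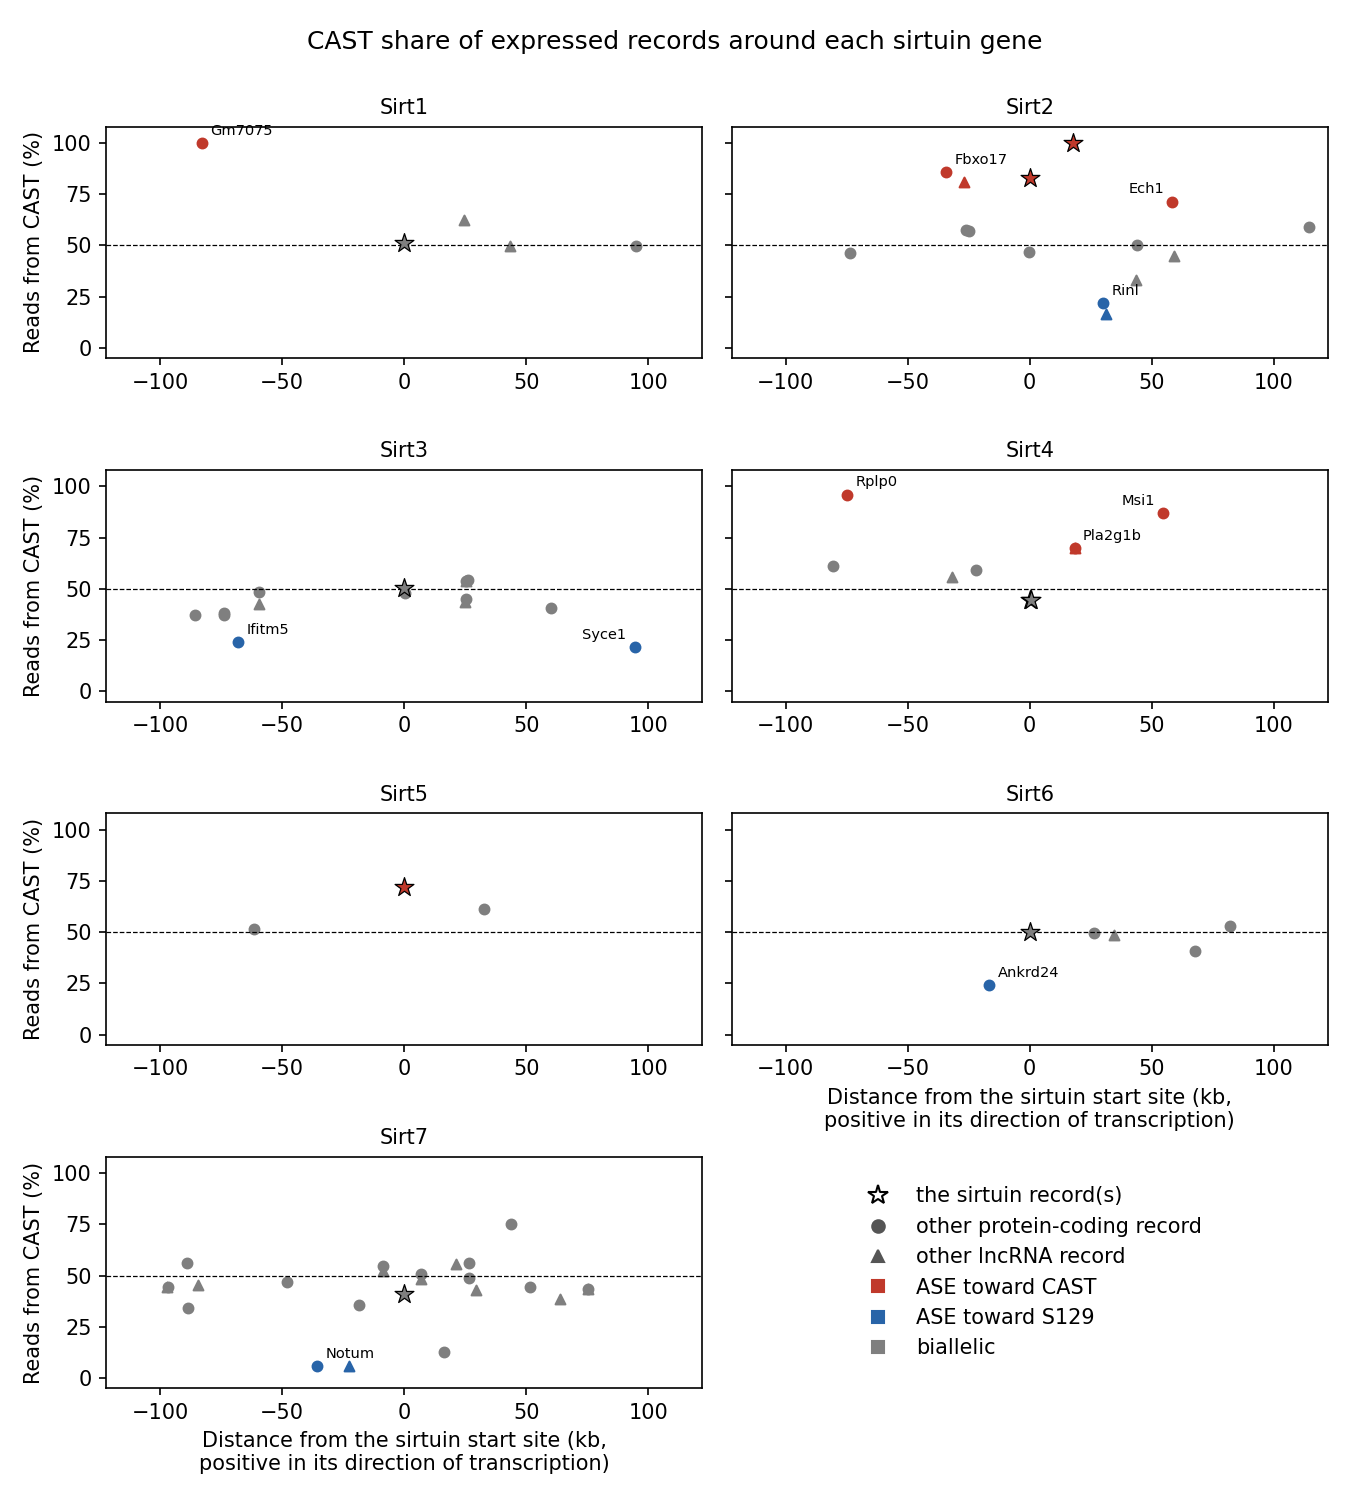
CAST share (%) of expressed records by the distance of their start from the sirtuin start site, in kb and positive in the direction of transcription, with 1 panel per sirtuin gene. Stars are the sirtuin records, circles other protein-coding and triangles other lncRNA records, coloured by call. Sirt2 (82.7%) has Nfkbib (46.8%) at its start and Rinl (21.8%) beyond its end, and Sirt5 (72.1%) stands above both of its neighbours.

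The genes that supply and compete for NAD+ were examined as the background for sirtuin activity. Of 29 records of 19 NAD synthesis and transport genes, 16 were expressed and 15 had allelic reads. None was called toward CAST, 3 were called toward S129 and 12 were biallelic, with a median CAST share of 46.9% against 50.15% over all tested records, of which 8.33% were called toward CAST and 5.78% toward S129. Both Nmnat3 records hold the same 68 CAST and 4 S129 reads, but at 0.342 and 0.294 TPM they were below the expression minimum and were not called. The 3 were Qprt, the enzyme that makes nicotinic acid mononucleotide from quinolinic acid (47 CAST and 131 S129 reads, log2 ratio -1.48 ± 0.24), Naprt, which starts from nicotinic acid (8 CAST and 22 S129 reads), and the lncRNA record of Nmnat2 (4 CAST and 19 S129 reads). Nampt, the rate-limiting enzyme of NAD+ salvage, reached 28.2 TPM. Its protein-coding record was biallelic by the 2-fold rule, with 1304 CAST and 1673 S129 reads (43.8% from CAST, exact binomial test, adjusted p = 1.02e-10). The lncRNA record inside it was also biallelic but nearer the 2-fold limit, with 454 CAST and 877 S129 reads (34.1% from CAST).

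Among 17 other NAD+ consuming genes, 18 expressed records had allelic reads, 1 was called toward CAST and 1 toward S129, against 14.1% called over all tested records. The median CAST share was 47.1%, against 50.15% over all tested records. Cd38, an NAD+ glycohydrolase, was called toward S129 with 136 CAST and 462 S129 reads (log2 ratio -1.76 ± 0.14), at 1.51 TPM. Parp14, a mono-ADP-ribosyltransferase, was called toward CAST with 290 CAST reads, a share of 69.2% (log2 ratio 1.17 ± 0.15). Parp1, the main poly(ADP-ribose) polymerase of DNA repair, was the deepest of the records named here, with 6347 CAST and 8284 S129 reads, and was biallelic at 43.4% from CAST.

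None of the tested records of the zinc-dependent histone deacetylases, which remove acetyl groups without NAD+, was called, against 14.1% of all tested records, a difference that cannot be read from so few records. The table held 9 of the 11 genes, and all 11 of their expressed records had allelic reads, with CAST shares between 38.5% and 64.6% and a median of 47.5%. Hdac1 reached 24.6 TPM with 2611 CAST and 3095 S129 reads, and Hdac2 reached 19.3 TPM with 1738 CAST and 1808 S129 reads. Hdac11 had the highest share, with 203 CAST and 111 S129 reads (exact binomial test, adjusted p = 1.14e-06), which is under a 2-fold difference.

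Of the 5 genes fixed as regulators of SIRT1, 4 were expressed, in 5 records. All 5 records were biallelic, with a median CAST share of 53.8%. Over all tested records 14.1% were called, a difference that cannot be read from so few records. Ccar2, the inhibitor known as DBC1, had 72 CAST and 69 S129 reads. Rps19bp1, the activator known as AROS, had 457 CAST and 379 S129 reads. For the SUMO protease gene Senp1 the protein-coding record held 1174 CAST and 964 S129 reads and the lncRNA record 7 CAST and 6 S129 reads, and the deubiquitinase gene Usp22 had 897 CAST and 1079 S129 reads. Nnmt, whose product methylates nicotinamide, was not expressed, with 0.0281 TPM.

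Sirtuin substrates were split by compartment. Of 15 listed nuclear and cytosolic substrates, 12 were in the table, and 16 of their records were tested with a median CAST share of 51.05%. Of these, 2 were called, against 14.1% of all tested records. The protein-coding record of Polr1e, an RNA polymerase I subunit gene and SIRT7 substrate, was called toward CAST (1318 CAST and 627 S129 reads, log2 ratio 1.07 ± 0.07). The lncRNA record of Polr1e was biallelic, with 73 CAST and 58 S129 reads. Cdk9, the elongation kinase gene, was called toward S129 (21 CAST and 68 S129 reads, log2 ratio -1.70 ± 0.36). Trp53, which encodes p53, reached 69.9 TPM and was biallelic, with 2705 CAST and 1902 S129 reads. Of 12 mitochondrial substrates, 11 were in the table, and 14 records were tested with a median CAST share of 55.3%. ASE was called for 3 of them, all toward CAST, against 8.33% called toward CAST over all tested records, and 2 of the 3 belong to 1 gene. They were both records of Acadl, the long-chain acyl-CoA dehydrogenase and SIRT3 substrate (protein-coding record with 322 CAST and 120 S129 reads, lncRNA record with 110 CAST and 45 S129 reads), and Mlycd, the malonyl-CoA decarboxylase and SIRT4 substrate (163 CAST and 72 S129 reads). Sod2, the mitochondrial superoxide dismutase, was biallelic with 752 CAST and 607 S129 reads. Over all 6 lists 10 records had ASE, and none did with an intra-gene correlation of 0.05.

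**Figure D5:**
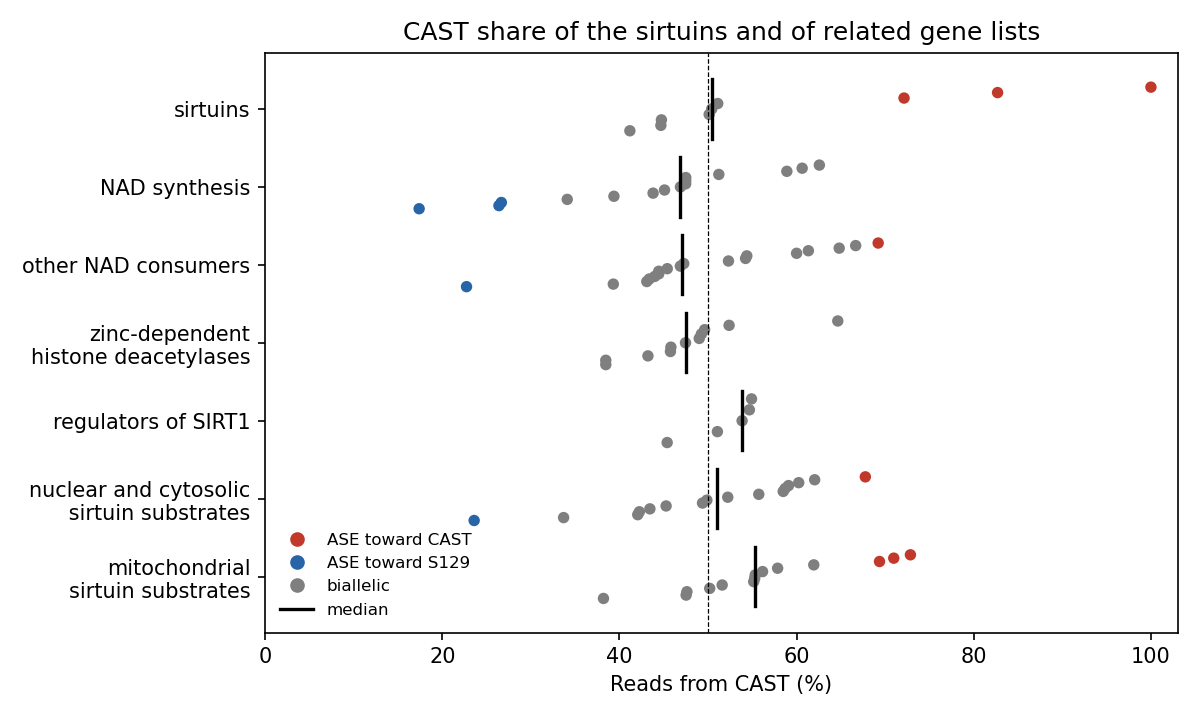
CAST share (%) of each expressed record with allelic reads for the sirtuins and the 6 related gene lists, with the median of each as a black line. The sirtuins reach 100% at the Sirt2 lncRNA record, the zinc-dependent deacetylases stay between 38.5% and 64.6%, and the 3 calls of the NAD synthesis list lie on the S129 side.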

How the data were processed

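Total RNA-seq of F123 mESCs (2 replicates) was available as 1 table of pooled values. According to the study's methods and the submitters' processing notes, the authors aligned reads to GRCm38.p6 with STAR (version 2.7.2c) with knowledge of the hybrid's variants, and Picard was used to remove duplicate reads. The deposited TPM values were made by the authors from HTSeq read counts over exons and introns, scaled by length and library size. The deposited allelic read counts were made by the authors with the GATK allelic read counter and summed over the variants of a record. Both replicates were pooled in these counts by the authors, as a sum or a mean, and which was not established. The numbers of variants were deposited with them. A read that covers several variants can enter more than once, so intervals and floors cover counting error only. A minimum of 20 reads per variant is stated, but the mean reads per variant of Sirt4, Sirt5 and Sirt7 are below it. The authors' p-values, adjusted p-values, ASE ratios, log2 fold changes and classes were also in the table and were not used.

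Allelic reads were tested against equal shares by a two-sided exact binomial test, adjusted by Benjamini-Hochberg over all 18632 records with allelic reads. ASE required a 2-fold difference, an adjusted p of at most 0.05 and 1 TPM, with no added reads. Intervals are Clopper-Pearson (95%). Shares were compared by Fisher's exact test. The members and gene lists were chosen with earlier results of these data known. Named were all sirtuin records, records overlapping them, ASE records within 100 kb, from each list up to 4 ASE records per allele with the most allelic reads, and all members of lists with up to 8 genes. Nampt, Parp1, Hdac1, Hdac2, Hdac11, Trp53 and Sod2, the lncRNA record of Polr1e and the neighbouring records without a call were added after their values were seen. Coordinates were those of the table and were identical to GENCODE for all 10 sirtuin records. Promoters came from RefSeq (GRCm38.p6) and matched all 7 genes. Alternatives were minimum reads, TPM and fold, the adjusted p limit and its family, another null share, a beta-binomial test, added reads and centring, and, chosen after seeing the data, reads per variant, exonic TPM, and Sirt2 without the lncRNA reads. Python 3.11.15, scipy 1.17.1 and pandas 2.3.3 were used.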

Additional observations from a re-analysis of the deposited data

How the results depend on the processing

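The count of sirtuin records with ASE was 3 or, where Sirt5 was lost, 2 under the 14 alternatives. Of 138 single values over the 9 sirtuin records, 135 were unchanged. The 3 others are the losses of Sirt5 (TPM of at least 5, intra-gene correlation 0.05, mean reads per variant as counts). Added reads and centring gave no test, so there only the side of the 2-fold limit was compared. Stricter minimum reads, TPM or p limits could not turn a biallelic record into ASE, so many of these values were bound to stay unchanged. Among the biallelic records, Sirt6 changed sign, to a log2 ratio of -0.01, when centred on all allelic reads. A minimum of allelic reads could not affect the 2 passing pairs in the order of shares, since their genes all had over 100. Mean reads per variant as counts left 0 of these pairs and 3 of the 7 passing pairs with flanking genes. Other counts also moved. With a TPM of at least 5 the calls were 1117 over all records (2249 as tested here), 9 around the sirtuins (15) and 3 in the lists (10). An intra-gene correlation of 0.05 left 487, 6 and 0 in the same order. A 1.5-fold minimum gave 4104, 23 and 21, and no fold minimum gave 7701, 34 and 43. With at least 100 allelic reads 1444 calls were made over all records. Mean reads per variant as counts, chosen after seeing the data, gave 894 over all records and 2 in the lists. Why the counts moved was not tested beyond the construction of each setting. Leaving out a replicate was not run, since the table holds pooled values. No paired analysis was possible because the 2 replicates form 1 group and are pooled. Depth limits Sirt4, with 47 allelic reads, and Sirt7, with 17.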

Other observations

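Of the 15935 tested records, 5765 (36.2%) had a mean under 20 allelic reads per variant, among them Sirt4, Sirt5 and Sirt7. The 9 tested sirtuin records carry nearly all of their non-reference bases on CAST. Tested records with no non-reference base on S129 had a median CAST share of 49.8% (10032 records), and those with at least 1 had a median of 51.3% (5903 records). In all 3302 nested pairs of records of 1 gene with allelic reads in the inner record, the inner record held no more variants and no more reads of either allele than the outer one, as for Sirt2 and Sirt4.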
